A study of Mus musculus with 12 samples.

Results

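The 58 Rab GTPase genes described here were the genes whose symbol is Rab followed by a number and at most a short suffix, out of 22180 genes with a probe set of their own on the arrays. Rab GTPases are small proteins that mark the membranes of a cell. Bound to GTP, a Rab sits on a vesicle or organelle and recruits effector proteins that move, tether or fuse it. Exchange factors switch a Rab on, GTPase-activating proteins switch it off, and prenylation enzymes and dissociation inhibitors place it on membranes and take it off again. In dendritic cells, which sample antigen and present it to T cells, these proteins direct phagosomes, antigen-loaded endosomes, recycling receptors and secreted vesicles.

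The cells were bone marrow-derived dendritic cells, grown from marrow of 8-week-old C57BL/6 mice with the growth factor GM-CSF at 20 ng/ml and harvested on day 7. Cells of Arc/Arg3.1 knockout mice were treated with LPS or left untreated, and so were cells of wildtype mice, with 3 arrays in each of the 4 groups. LPS, a bacterial cell wall component sensed by Toll-like receptor 4, was given at 100 ng/ml for 30 min, and RNA came from cells that had been washed and kept in medium for another 1 h. Arc, an activity-induced gene studied mostly in neurons, acts there in synaptic receptor uptake, and the series title links it to migrating dendritic cells and to the actin cytoskeleton. The knockout was of the whole animal and not limited to dendritic cells by any label, and marrow grown with GM-CSF also yields macrophages and granulocytes. Each value below is a normalized log2 signal of 1 probe set, on which a difference of 1 is a doubling. Arrays of 1 group are labelled as biological replicates with no word on whether separate animals were used, so p-values reflect only how far these cultures differed.

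Arc separated the genotypes on every array, with 7.68 to 8.05 on knockout arrays and 9.21 to 9.62 on wildtype arrays. All 12 early LPS response genes on a check list rose in both genotypes, among them Ptgs2, the inducible prostaglandin synthase, with a log2 difference of 5.69 in knockout cells and 5.44 in wildtype cells. The 3 untreated wildtype arrays stood closer to each other than any other arrays of 1 group. The SD of the difference between 2 of these arrays was 0.105 to 0.108 over 6440 genes with a mean signal above 8, against 0.193 to 0.438 in the other groups. The gap was smaller over all genes, at 0.226 to 0.232 against 0.247 to 0.435. Over the Rab genes it was smaller too, at 0.165 to 0.176 against 0.184 to 0.339. The 3 untreated wildtype arrays were counted as 1 sample because of their closeness. The LPS effect in wildtype cells and the genotype effect without LPS share that 1 sample. All mice are labelled male, yet Xist was at 11.22 to 11.92 and Y-linked signal low on 9 arrays, while 3 arrays (replicate 2 of both knockout groups and replicate 1 of LPS-treated wildtype cells) had the opposite pattern. Replicates 2 and 3 of both LPS groups also had a lower signal of 84 small RNA genes, with array medians of 9.83 to 9.87 against 10.44 to 11.05 on the other 8 arrays.

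On every array, all 13 measured dendritic cell markers lay above the median of probe sets with no gene, the background used here. Of 18 neutrophil markers, 6 fell with LPS in knockout cells and 1, Camp, fell in wildtype cells, and the others did not pass the test. The counts for all marker lists here stand beside 2.98% of all genes that rose and 2.93% that fell in knockout cells. In wildtype cells these shares were 1.34% and 0.234%. Per array, the median neutrophil marker signal was 7.33 to 7.77 in LPS-treated and 7.98 to 8.23 in untreated knockout cells, and 6.83 to 8.02 in LPS-treated and 7.90 to 8.04 in untreated wildtype cells, so that the groups overlapped in wildtype cells only. Of 8 monocyte markers, 3 fell in knockout cells and 1, Ccr2, fell in wildtype cells, with the others not past the test, and in the same comparison 4 and 2 of the 13 dendritic cell markers rose. The median monocyte marker signal was 7.76 to 8.01 in LPS-treated and 8.32 to 8.85 in untreated knockout cells, and 7.73 to 8.08 in LPS-treated and 8.68 to 8.92 in untreated wildtype cells. In each genotype at most 1 member of each list passed in limma among macrophage, mast cell and eosinophil markers. Lyz2 and Prg2 fell and Hdc rose in knockout cells, and Prg2 fell in wildtype cells. No T, NK or B cell marker passed, and of 8 T and NK cell markers, 1 lay above background on every array. Fewer cells of a type and less RNA per cell cannot be told apart in such bulk samples, and the part of these markers in the Rab results below was not tested.

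Most Rab genes gave a signal above the background median. As a gauge, the median of probe sets with no gene lay between 5.89 and 6.10 on the 12 arrays. Of the 58 genes, 48 lay above that median on every array, 10 on some arrays and 0 on none. Many probe sets with no gene also exceed their own median, so lying above it does not by itself show detection. Among the 48 were Rab39b, at 6.08 to 6.62, and Rab17, at 6.12 to 6.61, both close to that range. The 5 highest mean signals belonged to Rab7 (12.69), the Rab of late endosomes and lysosomes, Rab8b (12.29), which acts in exocytosis, Rab10 (11.48), which carries Toll-like receptor 4 to the surface of mouse macrophages, Rab1a (11.18), which acts between endoplasmic reticulum and Golgi, and Rab21 (11.16), an early endosome Rab linked to integrin uptake. The 5 lowest were Rab39 (5.71), Rab27b (5.83), Rab42 (5.86), Rab4a (5.90) and Rab3b (5.91), all at about the background. Signals of different probe sets depend on their probes, so these figures do not say which transcript was more abundant. In 7 genes more than 1 probe set was present, and 3 probe sets shared between a Rab gene and another gene were left out, so that Rab4b was not analysed here.

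In knockout cells 4 Rab genes changed with LPS. Rab20 and Rab12 rose, and Rab39 and Rab30 fell. In wildtype cells Rab20 rose and no other Rab gene passed the test. Over both genotypes, Rab20, Rab12 and Rab6a rose and Rab39 fell. The 4 calls of 58 in knockout cells stand beside 5.91% of all 22180 genes called there (2.98% up and 2.93% down), the 1 call in wildtype cells beside 1.57% (1.34% up and 0.234% down), and the 4 calls over both genotypes beside 6.22% (3.94% up and 2.28% down). At this threshold the Rab family was called about as often as genes in general. At an unadjusted limma p under 0.05 the counts were 17, 7 and 19 of 58 in the same order, beside 20.3%, 9.91% and 17.6% of all genes. There the Rab share was the larger in each comparison, and this gap was not tested.

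**Figure D1:**
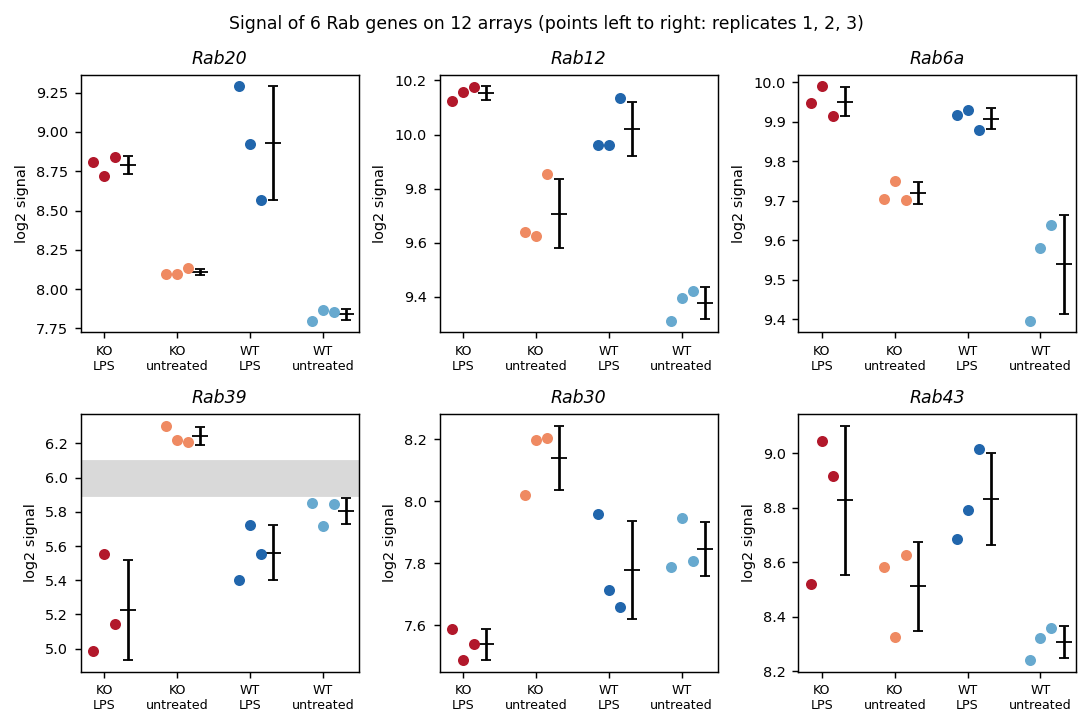
Log2 signal of 6 Rab genes on each of the 12 arrays (points, replicates 1 to 3 from left to right), with the group mean and SD as bars; the SD of untreated wildtype cells is over 3 arrays counted as 1 sample. Grey marks the range of the median of probe sets with no gene. Rab20, Rab12 and Rab6a are higher in LPS-treated than in untreated cells in both genotypes, Rab30 is lower with LPS in knockout cells, and Rab39 is above the grey range in untreated knockout cells only.

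Rab20 is an endosomal Rab known from mouse macrophages, where it acts in the maturation of phagosomes. It had 8.81, 8.72 and 8.84 in LPS-treated knockout cells, against 8.10, 8.09 and 8.13 in untreated knockout cells. In wildtype cells it had 9.29, 8.92 and 8.57 with LPS, against 7.80, 7.87 and 7.86 without. All 6 LPS-treated arrays were above all 6 untreated arrays, and the LPS-treated wildtype arrays were the most spread. The log2 difference was 0.68 in knockout cells (SE 0.16, limma adjusted p = 0.0293) and 1.09 in wildtype cells (SE 0.22, adjusted p = 0.0406). Over both genotypes it was 0.88 (SE 0.14, adjusted p = 0.0026). The call over both genotypes held in all 26 other settings. Within a genotype it did not always hold: the call was lost in 6 of 27 other settings in knockout cells (adjusted p of up to 0.111) and in 10 of 27 in wildtype cells (up to 0.188), without a change of direction. In knockout cells these included leaving out any 1 untreated array, or LPS-treated replicate 1 or 3, with 0.66 to 0.69 in place of 0.68. In wildtype cells they included leaving out any 1 untreated knockout array, LPS-treated knockout replicate 3 or LPS-treated wildtype replicate 2, where the value stayed at 1.09. A second Rab20 probe set gave 0.48 in knockout cells (adjusted p = 0.0666), 0.63 in wildtype cells (adjusted p = 0.190) and 0.56 over both (SE 0.12, adjusted p = 0.0165), so the direction was shared and the size was smaller.

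Rab12, which in mouse cells routes the transferrin receptor from recycling endosomes to lysosomes, had 10.12, 10.16 and 10.18 in LPS-treated and 9.64, 9.63 and 9.85 in untreated knockout cells. In wildtype cells it had 9.96, 9.96 and 10.13 with LPS, against 9.31, 9.40 and 9.42 without. Every LPS-treated array again lay above every untreated array. The log2 difference was 0.45 in knockout cells (SE 0.11, adjusted p = 0.0327), 0.64 in wildtype cells (SE 0.15, adjusted p = 0.0678) and 0.55 over both genotypes (SE 0.09, adjusted p = 0.0044). With replicate number as a block the wildtype difference passed the threshold (adjusted p = 0.0367). In knockout cells the call was lost in 10 of 27 other settings, among them leaving out untreated replicate 1 or 2, any 1 LPS-treated knockout array or LPS-treated wildtype replicate 2, with an adjusted p of up to 0.185 when the 4 arrays with low small RNA signal were left out. That setting also ended the call over both genotypes (adjusted p = 0.111).

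Rab6a, a Golgi Rab that serves retrograde transport and the exit of secretory vesicles, had 9.95, 9.99 and 9.92 in LPS-treated and 9.70, 9.75 and 9.70 in untreated knockout cells. In wildtype cells it had 9.92, 9.93 and 9.88 with LPS, against 9.40, 9.58 and 9.64 without. The groups did not overlap, but the difference was small, at 0.30 over both genotypes (SE 0.08, adjusted p = 0.0465). It did not pass in knockout cells alone (0.23, adjusted p = 0.176) or in wildtype cells alone (0.37, adjusted p = 0.279). The call over both genotypes was lost in 16 of 26 other settings, with an adjusted p of up to 0.239, and leaving out any 1 of 10 of the 12 arrays was enough.

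The letters before the starts of the 3 genes that rose are shown because these genes moved the same way. Each line holds the 250 bases upstream of the RefSeq start in build GRCm38.p6, read 5′ to 3′ on the gene's strand: Rab20 at chr8:11478641-11478890 (minus strand), Rab12 at chr17:66519671-66519920 (minus strand) and Rab6a at chr7:100607336-100607585 (plus strand). Capitals mark a searched motif.
Rab20: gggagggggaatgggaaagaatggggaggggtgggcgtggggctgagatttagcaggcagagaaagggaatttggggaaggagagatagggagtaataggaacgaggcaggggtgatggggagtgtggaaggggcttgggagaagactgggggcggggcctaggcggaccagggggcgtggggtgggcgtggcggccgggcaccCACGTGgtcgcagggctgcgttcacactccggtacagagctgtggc
Rab12: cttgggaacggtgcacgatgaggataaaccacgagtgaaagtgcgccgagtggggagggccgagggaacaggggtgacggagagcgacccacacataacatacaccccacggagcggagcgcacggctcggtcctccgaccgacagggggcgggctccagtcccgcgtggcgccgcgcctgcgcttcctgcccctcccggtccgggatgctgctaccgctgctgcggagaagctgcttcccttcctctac
Rab6a: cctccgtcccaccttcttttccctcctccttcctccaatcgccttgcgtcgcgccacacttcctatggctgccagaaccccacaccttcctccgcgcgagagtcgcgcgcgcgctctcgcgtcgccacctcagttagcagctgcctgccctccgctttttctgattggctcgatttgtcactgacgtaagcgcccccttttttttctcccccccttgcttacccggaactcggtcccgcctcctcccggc
The 4 motifs searched on both strands were NF-kB (GGG, any 2 bases, then TTTCC), AP-1 (TGANTCA), CRE (TGACGTCA) and the E-box (CACGTG). Rab20 held 1 E-box, 40 bases before the start, and no other motif. Neither Rab12 nor Rab6a held any of the 4, and neither did the same window of Rab39. The E-box was in 6.02% of 32851 windows of this length and in 8.47% of the 59 windows that belong to 47 Rab genes. The shares for all windows and for Rab windows were 1.41% and 5.08% for NF-kB, 6.75% and 3.39% for AP-1, and 1.55% and 3.39% for CRE. NF-kB letters stood before Rab9, Rab15 and Rab28. A match is letters only and not a binding site. Rab30 was not in the table.

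Rab39 differed between LPS-treated and untreated knockout cells, but at the edge of detection. Human RAB39A, its counterpart, is a Golgi and endosome Rab that binds caspase-1. The signal was 4.99, 5.55 and 5.14 in LPS-treated and 6.30, 6.22 and 6.21 in untreated knockout cells. It was 5.40, 5.72 and 5.56 in LPS-treated and 5.85, 5.72 and 5.85 in untreated wildtype cells. Untreated knockout cells alone were above the background range, so the drop in signal of 1.02 in knockout cells (log2 difference -1.02, SE 0.15, limma adjusted p = 0.0027) is not a fold change of transcript. The call in knockout cells held in all 26 other settings that tested Rab39, as did that over both genotypes (-0.63, SE 0.13, adjusted p = 0.0138) in all 25. In wildtype cells the difference was -0.24 (adjusted p = 0.869). The difference between these effects, tested as the interaction of genotype and LPS, was -0.77 (SE 0.26, unadjusted p = 0.0126, adjusted p = 0.824) and did not pass. It passed with array weights only (adjusted p = 0.0272).

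Rab30, a Golgi Rab, had 7.59, 7.49 and 7.54 in LPS-treated and 8.02, 8.20 and 8.20 in untreated knockout cells. In wildtype cells it had 7.96, 7.72 and 7.66 with LPS, against 7.79, 7.94 and 7.81 without, and these groups overlapped. The log2 difference was -0.60 in knockout cells (SE 0.11, limma adjusted p = 0.0104) and -0.07 in wildtype cells (adjusted p = 0.984). The interaction was -0.53 (unadjusted p = 0.0196, adjusted p = 0.926), so a difference between genotypes was not established. The knockout call was lost in 3 of 27 other settings: without the 4 arrays with low small RNA signal (adjusted p = 0.106), without untreated knockout replicate 3 (adjusted p = 0.0528) and without the 3 arrays with Y-linked signal (adjusted p = 0.0512).

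More Rab genes were called in knockout cells once the paired replicate numbers entered the fit as a block. The count was then 8 of 58, with 10.4% of all genes called. Beside the 4 above, Rab19 (-0.47, adjusted p = 0.0275), Rab28 (-0.45, adjusted p = 0.0429), Rab3d (-0.55, adjusted p = 0.0476) and Rab9 (-0.37, adjusted p = 0.0479) fell. Rab9 moves mannose 6-phosphate receptors from late endosomes to the Golgi, Rab3d sits on secretory granules, and Rab28 is known from cilia. A second Rab3d probe set gave -0.17 in knockout cells without the block (adjusted p = 0.561). The block gave 2 calls in wildtype cells (Rab20 and Rab12, with 3.00% of all genes) and 6 over both genotypes (10.1% of all genes), where Rab19 and Rab3a fell too. With the untreated wildtype arrays as 3 samples and no block, the counts were 8 in knockout cells (9.11% of all genes), 7 in wildtype cells (8.64%) and 16 over both genotypes (14.5%). Leaving out single arrays changed the knockout count as well. It was 7 without LPS-treated knockout replicate 2 (Rab20 rose, and Rab28, Rab30, Rab35, Rab39, Rab3d and Rab7b fell), where 7.52% of all genes were called. It was 2 without any 1 of the other 5 knockout arrays, with 2.77% to 4.57% of all genes. Without LPS-treated wildtype replicate 2 it was 3, with 4.75% of all genes.

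The value of Rab7b in knockout cells moved with single arrays and did not pass the test with all of them. Rab7b acts in lysosomal traffic of Toll-like receptors and lowers Toll-like receptor 4 signalling in mouse macrophages. It had 6.46, 7.81 and 6.99 in LPS-treated and 7.63, 7.73 and 7.92 in untreated knockout cells, and 7.11, 7.71 and 7.31 in LPS-treated and 7.59, 7.68 and 7.71 in untreated wildtype cells. In both LPS groups replicate 2 lay at the untreated level and replicates 1 and 3 below it. The log2 difference was -0.67 in knockout cells (SE 0.28, adjusted p = 0.213) and -1.03 (SE 0.20, adjusted p = 0.0171) without LPS-treated knockout replicate 2, against -0.36 (SE 0.24, adjusted p = 0.501) without replicate 1. With a term for low small RNA signal and all arrays kept it was -1.12 (adjusted p = 0.0361), and without the 4 arrays of low signal, which leaves 1 LPS-treated array in each genotype, -1.30 (adjusted p = 0.0239). It was -1.05 (adjusted p = 0.0378) without the 3 arrays with Y-linked signal, of which that array is one. In wildtype cells it was -0.28 (adjusted p = 0.967).

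**Figure D2:**
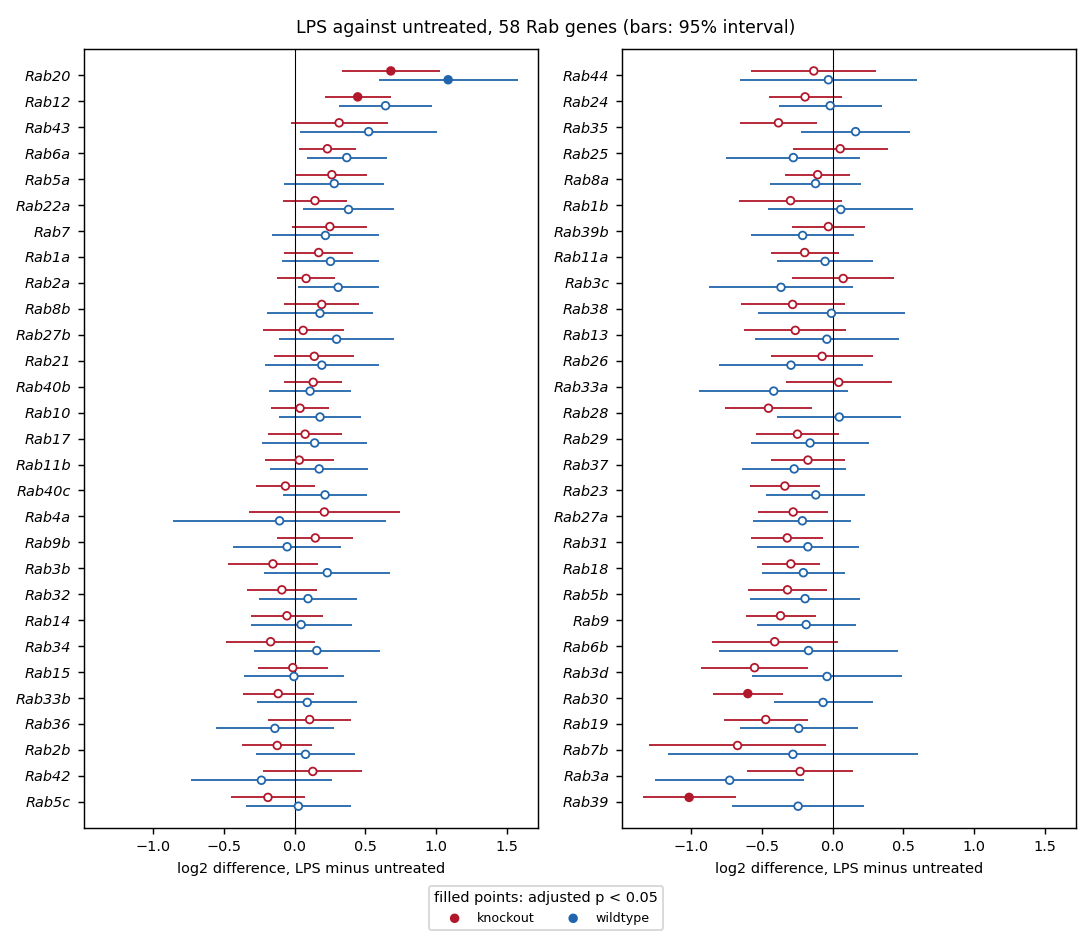
Log2 difference between LPS-treated and untreated cells for the 58 Rab genes in knockout (red) and wildtype (blue) cells, ordered by the difference over both genotypes, with 95% intervals from limma; filled points passed the adjusted threshold of 0.05. Rab20 stands at the top with 0.68 in knockout and 1.09 in wildtype cells, Rab39 at the bottom with -1.02 and -0.24, and most other genes lie within 0.5 of 0.

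By compartment, the LPS differences were small and ran in both directions. The median over the 58 genes was -0.098 in knockout cells, beside -0.0037 over all genes, and -0.014 in wildtype cells, beside -0.0053 over all genes. After quantile normalization the Rab medians were -0.043 in knockout and -0.071 in wildtype cells, so their order turned round. Among genes above the median signal the knockout median was -0.111 over 46 Rab genes and -0.0931 over all 11090. In knockout cells 23 Rab genes were above 0 and 35 below, and in wildtype cells 27 and 31. Without overlap between the groups of 3 arrays, 6 Rab genes were higher and 16 lower after LPS in knockout cells. That is 37.9% of the 58, beside 25.1% of all genes (10.3% higher and 14.8% lower), and for each gene the exact permutation test cannot give a p below 0.1. After quantile normalization, with the same median for all arrays or with the mean over probe sets, this count of 22 was between 17 and 23. The shares of all genes in those settings were not computed. Beside Rab12, Rab20 and Rab6a, the 6 higher genes were Rab2a, Rab40b and Rab5a, and Rab40b was above background on 10 of 12 arrays only.

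The 8 early endosome Rabs had a median log2 difference of 0.11 in knockout and 0.17 in wildtype cells, and Rab20 was the 1 member that rose. Rab5a, the Rab that drives fusion of early endosomes, had 10.89, 10.66 and 10.70 in LPS-treated and 10.56, 10.42 and 10.48 in untreated knockout cells, a difference of 0.26 (adjusted p = 0.222), with 0.28 in wildtype cells (adjusted p = 0.680). Its close relatives Rab5b and Rab5c were at -0.32 and -0.19 in knockout cells and -0.20 and 0.03 in wildtype cells. Rab22a was at 0.14 in knockout and 0.38 in wildtype cells, and Rab31, which acts between the trans-Golgi network and endosomes, at -0.32 and -0.18. None of these 5 passed the test.

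Of the 7 recycling endosome Rabs, 0 passed in limma in either genotype, and 1 (Rab35, in knockout cells) had an unadjusted p under 0.05. Rab11a, the general recycling Rab, was at -0.20 in knockout cells (adjusted p = 0.347) and -0.05 in wildtype cells (adjusted p = 0.989). Rab14, found on phagosomes and recycling endosomes, was at -0.05 and 0.05. Rab35, which controls fast recycling and actin at the plasma membrane, had 8.68, 9.03 and 8.75 in LPS-treated and 9.13, 9.30 and 9.18 in untreated knockout cells, without overlap. It had 9.22, 9.02 and 8.98 in LPS-treated and 8.80, 8.93 and 9.01 in untreated wildtype cells, which overlapped. Its difference was -0.38 in knockout cells (adjusted p = 0.105) and 0.16 in wildtype cells (adjusted p = 0.932), and its interaction was -0.55 (unadjusted p = 0.0277, adjusted p = 0.948).

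Of the 9 late endosome and lysosome Rabs and the 2 of lysosome-related organelles, 0 passed in limma in either genotype, with unadjusted p under 0.05 for 2 and 0 of them in knockout cells and for none in wildtype cells. Rab7 had 12.66, 12.99 and 12.84 in LPS-treated and 12.45, 12.69 and 12.60 in untreated knockout cells, which overlapped (0.25, adjusted p = 0.276). In wildtype cells its difference was 0.22 (adjusted p = 0.840). Rab32 and Rab38, which deliver enzymes to melanosomes and other lysosome-related organelles, were at -0.09 and -0.28 in knockout cells and at 0.10 and -0.01 in wildtype cells.

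Among 14 Rabs of the endoplasmic reticulum and Golgi, Rab39 and Rab30 fell in knockout cells, and 0 passed in limma in wildtype cells, where 3 had an unadjusted p under 0.05. Rab43, which mouse dendritic cells use for cross-presentation, had 8.52, 9.05 and 8.91 in LPS-treated and 8.58, 8.32 and 8.63 in untreated knockout cells. In wildtype cells it had 8.68, 8.79 and 9.02 with LPS, against 8.24, 8.32 and 8.36 without. LPS-treated arrays were higher apart from replicate 1 of the knockout cells, and the difference of 0.32 in knockout (adjusted p = 0.289) and 0.52 in wildtype cells (adjusted p = 0.439) did not pass. Rab1a was at 0.17 and 0.25, and Rab1b at -0.30 and 0.06.

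Of the 13 secretion and exocytosis Rabs, 0 passed in limma in either genotype, and 2 in knockout and 1 in wildtype cells had an unadjusted p under 0.05. Rab27a, which secures granule and exosome release and in mouse dendritic cells joins phagosomes, had 9.53, 9.37 and 9.38 in LPS-treated and 9.82, 9.74 and 9.56 in untreated knockout cells. The difference was -0.28 in knockout cells (adjusted p = 0.187) and -0.21 in wildtype cells (adjusted p = 0.815). Rab27b stayed at background, between 5.43 and 6.14. Rab8b was at 0.19 in knockout and 0.18 in wildtype cells, and Rab10 at 0.04 and 0.18. Rab3a, the synaptic vesicle Rab, had 6.40, 6.08 and 5.94 in LPS-treated and 6.71, 6.90 and 7.01 in untreated wildtype cells (-0.73, adjusted p = 0.241), with -0.23 in knockout cells (adjusted p = 0.494).

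**Figure D3:**
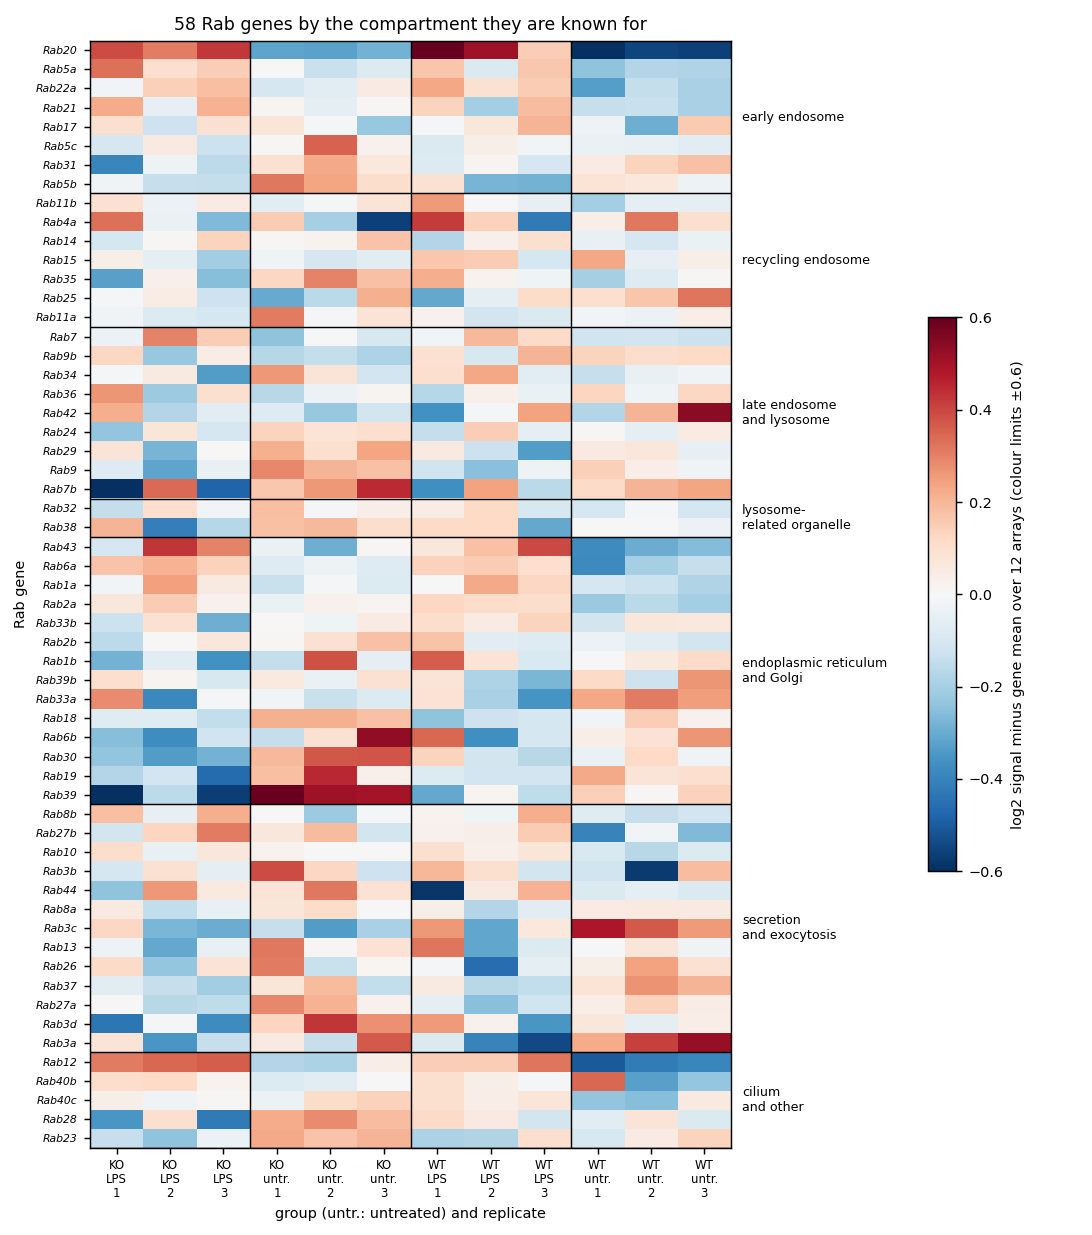
Log2 signal minus the gene's mean over 12 arrays for the 58 Rab genes (rows, grouped by the compartment each is known for) on the 12 arrays (columns, by group and replicate), with colours limited to 0.6 either way. Rab20 and Rab12 are red on the LPS-treated and blue on the untreated arrays of both genotypes, apart from near-white Rab12 on untreated knockout replicate 3, and Rab39 is dark red on untreated knockout arrays; LPS-treated knockout replicate 2 departs from its group in Rab7b, Rab28 and Rab35.

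Loss of Arc left no Rab gene past the test. The counts were 0 of 58 after LPS (0.00902% of all genes called), 0 without LPS (0.00451%), 0 over both treatments (0.0135%) and 0 for the interaction (0% of all genes). With limma at an unadjusted p under 0.05 they were 1, 2, 2 and 3 of 58, beside 3.95%, 4.04%, 3.30% and 4.43% of all genes. The smallest adjusted p was 0.999 after LPS, 0.970 without LPS, 0.9997 over both treatments and 0.824 for the interaction. Over both treatments the log2 difference between knockout and wildtype cells was between -0.37 (Rab3c) and 0.23 (Rab12). The 95% intervals of all 58 lay within 1 either side of 0, and those of 54 within 0.5, with outer bounds of -0.69 and 0.57. So over both treatments a change of a doubling or more lay outside each interval, while some smaller ones did not. Without LPS the intervals of 56 of 58 genes lay within 1, and for the interaction those of 47.

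After LPS, with 3 samples on each side, differences between knockout and wildtype cells were between -0.35 (Rab1b) and 0.21 (Rab3a), with 45 of 58 intervals within 0.5 of 0. The groups did not overlap for 2 genes, Rab30 and Rab40c, both lower in knockout cells. That is 3.45% of the 58, beside 7.78% of all genes. Rab40c had 7.56, 7.51 and 7.54 in LPS-treated knockout and 7.62, 7.57 and 7.60 in LPS-treated wildtype cells, a difference of -0.06. Without LPS, against the 1 counted wildtype sample, 46 of the 58 differences were above 0 and 12 below, with a median of 0.12 beside 0.02 for all genes. After quantile normalization of the arrays that Rab median was 0.01. Among genes above the median signal it was 0.131 over 46 Rab genes and 0.117 over all 11090. Rab3c, a secretory vesicle Rab, had the lowest of them at -0.59 (SE 0.23, unadjusted p = 0.0268, adjusted p = 0.970). On the probe set used here Rab3c had 7.57, 7.37 and 7.51 in untreated knockout cells and 8.20, 8.08 and 7.96 in untreated wildtype cells. This difference passed the limma test with the replicate block and 12 separate arrays only (adjusted p = 0.0417). That fit tied untreated wildtype arrays to other arrays of the same number, although their residuals gave no pairs.

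**Figure D4:**
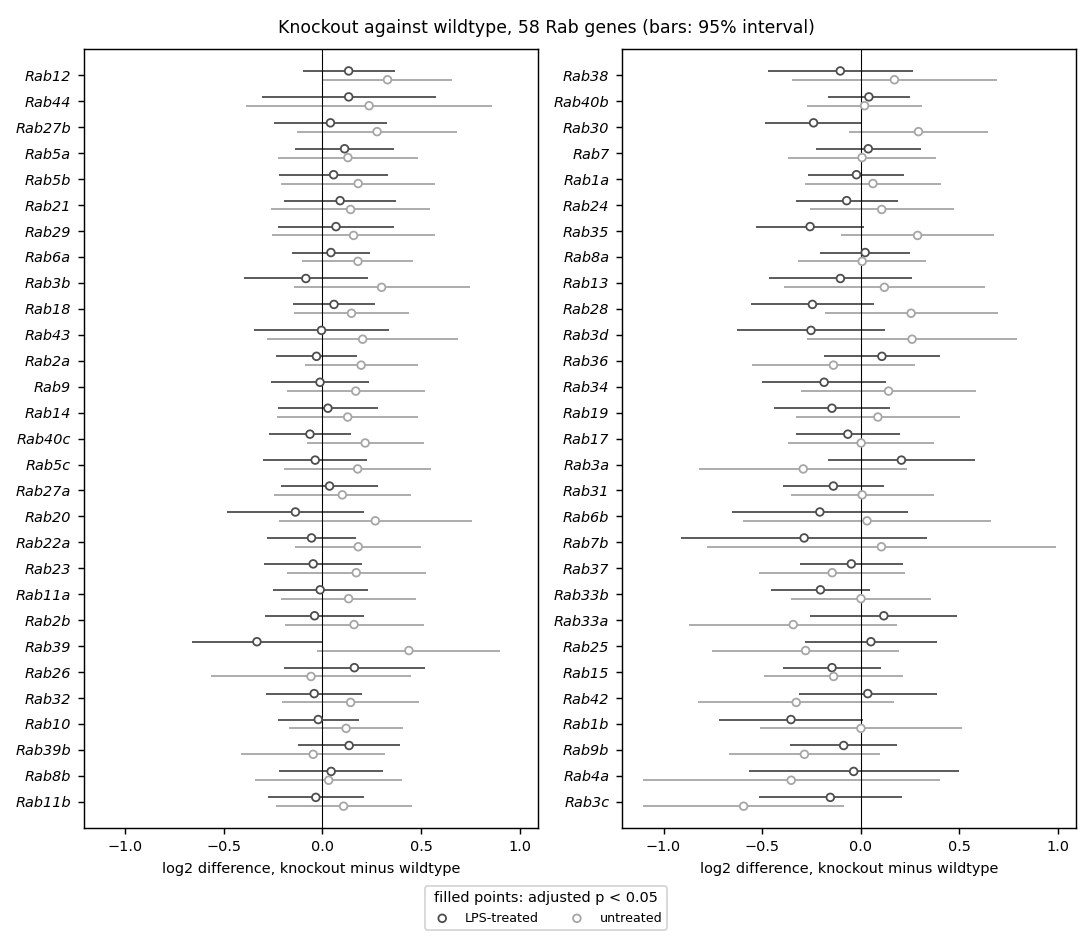
Log2 difference between knockout and wildtype cells for the 58 Rab genes after LPS (black) and without LPS (grey), ordered by the difference over both treatments, with 95% intervals from limma; no point is filled, since none passed the adjusted threshold of 0.05. Points run from -0.35 (Rab1b) to 0.21 (Rab3a) after LPS and from -0.59 (Rab3c) to 0.44 (Rab39) without LPS, and the grey intervals are wider because untreated wildtype cells count as 1 sample.

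Genes that act on Rab proteins moved in a few cases after LPS, to be read beside the 2.98% of all genes that rose and 2.93% that fell in knockout cells, and the 1.34% and 0.234% in wildtype cells. Of 34 measured exchange factors (37 listed), 4 rose and 0 fell in knockout cells, and 1 rose in wildtype cells. Rabgef1, which activates Rab5 on early endosomes, rose by a log2 difference of 1.04 in knockout cells (SE 0.11, limma adjusted p = 0.000278) and 1.13 in wildtype cells (SE 0.15, adjusted p = 0.0040). Dennd4a, an exchange factor for Rab10, rose by 0.82 in knockout cells (adjusted p = 0.0065) and was at 0.83 in wildtype cells (adjusted p = 0.0758). Dennd5a, which binds Rab6 and activates Rab39, rose by 0.57 (adjusted p = 0.0190), and Dennd3, which activates Rab12, by 0.51 (adjusted p = 0.0409), both in knockout cells. Over both genotypes Rab3ip, which activates Rab8, rose by 0.41 (adjusted p = 0.0142). The list's median was -0.04 in knockout and 0.12 in wildtype cells.

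Of 40 GTPase-activating proteins, 3 rose and 2 fell in knockout cells, and 1 rose in wildtype cells. Usp6nl, which in human cells acts on RAB5 and RAB43, rose by 0.72 in knockout cells (SE 0.14, limma adjusted p = 0.0114) and 0.99 in wildtype cells (SE 0.19, adjusted p = 0.0339). In knockout cells Tbc1d30 (0.50, adjusted p = 0.0116) and Tbc1d9 (0.45, adjusted p = 0.0446) rose, and Tbc1d14 (-0.56, adjusted p = 0.0067), which binds Rab11 and regulates autophagosome formation, and Tbc1d8b (-0.52, adjusted p = 0.0139) fell. Of 54 measured effectors (61 listed), 2 rose and 2 fell in knockout cells. Rilpl2, which binds phosphorylated Rab8 and Rab10, rose by 0.99 (adjusted p = 0.0134) and was at 1.26 in wildtype cells (unadjusted p = 0.000786, with an adjusted p just short of the threshold). Fyco1 (-0.57, adjusted p = 0.0155), which links Rab7 vesicles to kinesin, and Rubcn (-0.64, adjusted p = 0.0171), which binds Rab7 and slows endosome maturation, fell, and Dennd5a was the other that rose. Of 7 measured prenylation and membrane extraction genes (8 listed), 0 passed in limma in either genotype, and Rabac1, a Rab acceptor of the Golgi, had -0.37 in knockout cells (unadjusted p = 0.0486) and -0.56 in wildtype cells (unadjusted p = 0.0393). Between knockout and wildtype cells 0 genes of these 4 lists passed in any of the 3 comparisons or the interaction.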

How the data were processed

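The authors deposited normalized log2 signals, 1 for each probe set on each array. How background correction and normalization were done, and on which genome build, is not stated in the labels; the submitters' processing notes name limma with no version. Probe sets were named from the platform annotation. Of 34390 probe sets, 23521 carried 1 gene, 1814 several and 9055 none. Each of 22180 genes was read from its probe set of highest mean signal.

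Differences were tested with R 4.3.3 and limma 3.58.1, by lmFit with a mean for each group, 7 contrasts and eBayes (two-sided), and adjusted by Benjamini-Hochberg over all 22180 genes, with a threshold of 0.05. All 4 groups shared 1 estimate of the spread. The 3 untreated wildtype arrays were averaged into 1 sample, which left 10 samples and 6 residual degrees of freedom; that lone sample is assumed to vary like the samples of the other groups. Single genes were also compared by an exact permutation test where both groups had 3 samples.

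The fitting script was tested on simulated data. The Rab genes, the other gene lists and the tests were chosen with earlier results of these data known. Beside this fit, 27 other settings were run, of which 2 were added after seeing the data. Named genes were all Rab genes, in full where a gene passed the threshold in any contrast, with the 5 highest and 5 lowest mean signals and a fixed set of well-known members, plus up to 4 members of each other list. Sequences are RefSeq's for GRCm38.p6 (mouse), read by gene symbol.

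Arrays with the same replicate number were checked for pairing by the correlation of their residuals. LPS-treated and untreated knockout arrays gave 0.381, 0.299 and 0.196, LPS-treated knockout and LPS-treated wildtype arrays 0.338, 0.358 and 0.228, and LPS-treated wildtype and untreated knockout arrays 0.145, 0.196 and 0.175. All were above 0.1, so these numbers were taken as pairs, from the data and not from the labels. The pairing entered only the settings with a replicate block, and the main fit and its p-values left it out. Correlations between arrays of unlike number were not computed, so the values above stand without that comparison. Y-linked signal was high on replicate 2 of both knockout groups but on replicate 1 of LPS-treated wildtype cells, so pairs across genotypes differed there. Pairs with untreated wildtype arrays lay between -0.053 and 0.113 and were not taken as pairs.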

Additional observations from a re-analysis of the deposited data

How the results depend on the processing

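The counts of Rab genes past the threshold moved with several settings, while no difference of a called Rab gene changed sign. For LPS in knockout cells, 4 genes in the report became 8 with 12 arrays as 12 samples or with the replicate block, 9 with both, 15 with array weights, 7 with a term for Y-linked signal and 2 without the 4 arrays with low small RNA signal; leaving out 1 array gave 2 to 7. For LPS in wildtype cells, 1 became 7 with 12 samples, with and without the replicate block, 2 with the replicate block alone, with genes above the median signal or with trend and robust estimation, 8 with array weights, and 0 after quantile normalization, with the mean over probe sets, with only the groups of the contrast, with a term for Y-linked signal or without the 3 arrays that carry it; leaving out 1 array gave 0 to 1, with 0 for each untreated knockout array, for wildtype replicate 2 with LPS and for knockout replicate 3 with LPS. For LPS over both genotypes, 4 became 16 with 12 samples, 20 with the replicate block added, and 23 with array weights; leaving out 1 array gave 3 to 4. For genotype, 1 gene (Rab3c) was called without LPS with the replicate block and 12 samples, and 1 (Rab39) for the interaction with array weights; leaving out 1 array gave 0. Beside the calls named here and in the report, the replicate block alone changed no call of a Rab gene. Added to the fit with 12 samples, the block also called Rab23 (lower) in knockout cells. Over both genotypes it then added Rab1a and Rab7 (higher) and Rab23 and Rab7b (lower). Groups that did not overlap after leaving out 1 array numbered 24 to 36 of 58 Rab genes for LPS in knockout cells (30.2% to 44.3% of all genes) and 3 to 16 for knockout against wildtype after LPS (13.1% to 25.1% of all genes), where smaller groups overlap less often by construction.

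Over all 22180 genes, the calls for LPS in knockout cells, 1311 in the report, became 2021 with 12 samples, 2312 with the replicate block, 2539 with both, 4698 with array weights and 562 without the arrays of low small RNA signal. For LPS in wildtype cells, 349 became 1917, 665, 2437, 2297 and 76 in those settings, and 196 with only the groups of the contrast. For LPS over both genotypes, 1380 calls in the report became 3206 with 12 samples. In that contrast 1782 genes rose and 2038 fell with 12 samples and the replicate block, and 2181 rose and 2566 fell with array weights. With a term for Y-linked signal, 656 genes rose and 714 fell for LPS in knockout cells. The array weights were estimated by an iteration that stopped before it converged. The 2 settings added after seeing the data were leaving out the 3 arrays with Y-linked signal, and the replicate block with 12 samples. A fit with only the groups of the contrast was not run where a contrast uses all 4 groups, and Rab39 was not tested among genes above the median signal. The causes of these shifts were not tested. The number of arrays limits the precision, and 10 Rab genes were not above the background median on every array.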
